A study of Mus musculus with 22 samples.

Results

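Acetylation of histone H3 at lysine 27 (H3K27ac) was mapped by chromatin immunoprecipitation and sequencing in regulatory T cells (Treg cells) of 2 mouse genotypes, and the comparison of those maps is described here. It rests on 4 of the 22 samples of the series, namely the 2 H3K27ac libraries of wild-type (WT) cells and the 2 of cells whose genotype the labels give as IkE5-deletion (IkE5 from here on), chosen by the sample titles. The labels do not expand the name IkE5. The title of the series names Ikzf1, which encodes the DNA-binding zinc finger protein Ikaros, as a partner of Foxp3 in gene repression. In both genotypes primary Treg cells from spleen and lymph nodes were stimulated with a commercial cocktail for 1 h and fixed in 1% formaldehyde for 5 min. No age, sex, strain, Cre driver or number of pooled mice is given in the sources used here, nor is it said whether the libraries of a genotype came from separate animals, so p-values measure only how libraries spread, and that spread may be technical. The other peak lists of the series, for Foxp3, the acetyltransferase p300, NFAT1 and, in WT only, Ikaros, served to annotate the H3K27ac regions. Chromatin for those lists was fixed for longer than the 5 min used for H3K27ac, so they come from separate preparations.

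H3K27ac is placed on nucleosomes at active promoters and enhancers, in large part by p300 and its relative CBP, and is removed by histone deacetylases. Ikaros recruits deacetylase-containing corepressor complexes in lymphocytes and also occupies active enhancers. Treg cells keep immune responses in check through the factor Foxp3, and when they are activated they lower genes of resting T cells and raise genes of effector cells.

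The unit of measurement was the length of chromatin under called peaks. Each deposited list gives only the position of its peaks, and an H3K27ac peak was between 500 and 80869 bp wide. Peaks of the 4 libraries that overlapped by at least 1 bp were joined into 64752 regions. For each protein-coding gene, the bases under peaks in the gene and 10 kb on each side were summed, and the sum was scaled to the total covered length of its library (scaled kb below). The peak lists hold no reads, so read depth is unknown, and a change of peak length cannot be told apart from a change of sequencing depth, enrichment or calling threshold. WT 1 and WT 2 had 53032 and 35272 peaks and covered 79.6 and 54.6 Mb. IkE5 1 and IkE5 2 had 47982 and 37152 peaks and covered 72.9 and 62.1 Mb. The spread within each genotype was larger than the difference between them, with means of 44152 ± 12558 peaks for WT and 42567 ± 7658 for IkE5 (SD over 2 libraries, n = 2, 2-sided exact permutation p = 1.00). With 2 libraries against 2 the smallest such p is 0.33. The number of peaks of at least 10 kb was 403 and 201 in WT and 376 and 224 in IkE5, again set more by library than by genotype. Identical intervals made up at most 0.0227% of the shorter list of any pair, so no library was a copy of another.

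The lists carried the marks of Treg chromatin in both genotypes. Foxp3, which defines the lineage, had 18.3 and 23.9 scaled kb in WT and 18.6 and 22.6 in IkE5. The interleukin 2 receptor gene Il2ra had 37.1 and 40.4 against 39.9 and 37.7, and the inhibitory receptor gene Ctla4 had 20.1 and 25.6 against 22.5 and 25.7. Groups overlapped at these genes and at Tnfrsf18, the gene of the receptor GITR (16.5 and 23.5 against 18 and 21.1). Ikzf2, which encodes the Ikaros relative Helios, had 125 and 108 scaled kb in WT and 148 and 135 in IkE5, without overlap and with a limma adjusted p of 0.571. Ikzf1 itself had 66.8 and 76.6 against 80.0 and 76.8, a log2 difference of 0.13 ± 0.17 (SE), and acetylation there does not check the deletion. Ms4a1 of B cells, Lyz2, Csf1r and Adgre1 of myeloid cells and Ncr1 of natural killer (NK) cells had no acetylated length in any library. Other markers of such cells were acetylated. Cd79a, a B cell receptor subunit gene, had 12.8 and 18.8 scaled kb in WT and 10.5 and 11.4 in IkE5, and the B cell factor genes Pax5 and Ebf1 had 0.542 to 2.17 over the 4 libraries. The myeloid genes Itgam (3.98 and 2.02 against 1.89 and 2.20) and Cd14 (2.62 and 3.74 against 3.19 and 3.05) and the NK cell gene Klrb1c (2.68 and 2.69 against 1.36 and 3.15) were acetylated in every library. Cd8a had 1.23 and 1.60 in WT and was listed at 0 in IkE5, whereas Cd8b1 had 1.77 and 1.90 in WT and 0.850 and 1.42 in IkE5.

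Most of the acetylated chromatin that the libraries shared was shared by both genotypes. Of the 64752 regions 20229 (31.2%) had a peak in all 4 libraries, and these were wide, with a median of 2430 bp. WT-only regions, with a peak in both WT libraries and in neither IkE5 library, numbered 3039 (4.69%), and IkE5-only regions, the reverse, numbered 2526 (3.90%). Regions found in a single library numbered 12818 in WT 1, 2578 in WT 2, 9822 in IkE5 1 and 2768 in IkE5 2. Regions of WT 1 and IkE5 1 alone numbered 3677 (5.68%), more than either genotype-only class. The other mixed pairs held fewer, 701 for WT 1 with IkE5 2, 270 for WT 2 with IkE5 2 and 224 for WT 2 with IkE5 1. With 1 library left out, fewer libraries had to hold or lack a peak, so higher counts follow from the definition. WT-only regions then numbered 16297 without WT 2, 6260 without WT 1 and 4582 without IkE5 1. IkE5-only regions numbered 12905 without IkE5 2, 5910 without IkE5 1 and 5982 without WT 1. Covered bases were shared at a Jaccard index (shared over joint length) of 0.577 between the WT libraries and 0.620 between the IkE5 libraries. Across genotypes the index lay between 0.480 and 0.582, so 1 cross pair, WT 2 with IkE5 2, exceeded the WT pair.

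**Figure D1:**
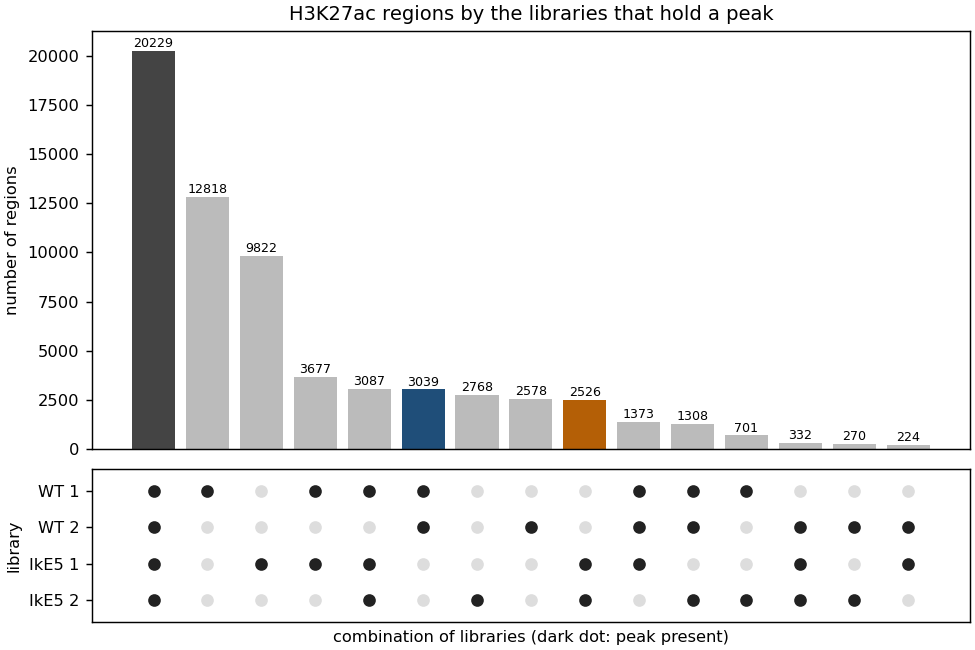
Number of joined H3K27ac regions (vertical axis) for every combination of libraries with a peak, shown by the dark dots under each bar. Regions in all 4 libraries (20229) are the largest class, regions of WT 1 alone (12818) and of IkE5 1 alone (9822) follow, and the WT-only (blue, 3039) and IkE5-only (orange, 2526) classes are of similar size.

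Regions of a single genotype were shorter than regions in all 4 libraries and lay less often near gene ends. Their median width was 889 bp for WT only and 963 bp for IkE5 only. Shortness was not particular to them: regions held by 1 library of each genotype had medians of 771 to 964 bp. Within 1 kb of either end of a protein-coding gene lay 7.44% of the WT-only and 8.23% of the IkE5-only regions, against 45.6% of the regions in all 4. Most WT-only and IkE5-only regions were inside genes, 62.8% and 61.7%. Among regions under 2000 bp, 7.43% of WT-only, 8.09% of IkE5-only and 44.8% of shared regions lay within 1 kb of a gene end. Under this limit the median widths were still 874, 924 and 1544 bp, so it does not match the widths of the classes. The widest WT-only region after the one in the deacetylase gene Hdac9 (chr12:34555194-34563171) lay in Slc35d1 (chr4:103167884-103172428), followed by regions in Ntn4 (chr10:93695831-93699913), Cdk19 (chr10:40384806-40388798) and Itga6, an integrin gene (chr2:71792107-71796018). The Slc35d1 region had 3.28 and 4.54 kb of peaks in the WT libraries, before scaling, and also held Foxp3, Ikaros, p300 and NFAT1 peaks of both WT lists and a p300 peak of 1 IkE5 list. The Itga6 region held no peak of another target. On the IkE5 side the widest regions after that near Iigp1 lay 91.0 kb from Tex13d (chrX:42391510-42398535), in the hexokinase gene Hk2 (chr6:82748713-82755538), 28.4 kb from Ifi27l2b (chr12:103485629-103492322) and 12.7 kb from Pwwp2b (chr7:139279969-139286538). At Hk2 the 2 IkE5 libraries differed, with 6.83 and 1.20 kb of peaks, whereas beside Pwwp2b they had 6.23 and 5.98 kb.

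Peaks of p300, Foxp3 and NFAT1 at these regions were more frequent in the genotype that was acetylated there. At IkE5-only regions p300 peaks of the IkE5 lists were present at 10.5% and 8.67%, and those of the WT lists at 2.57% and 1.39%. NFAT1, the calcium-activated factor, was found at 4.0% and 3.05% with the IkE5 lists and at 1.43% and 1.19% with the WT lists. At WT-only regions the order was reversed for p300, with 4.8% and 3.13% in WT against 2.93% and 1.41% in IkE5. It was reversed for NFAT1 as well, with 3.72% and 2.90% against 0.658% and 0.197%. For NFAT1 the WT lists were also ahead at regions in all 4 libraries, with 28.8% and 25.9% against 16.7% and 11.9%. Foxp3 peaks lay at 24.4% and 12.3% of IkE5-only regions with the IkE5 lists and at 7.88% and 4.32% with the WT lists. At WT-only regions Foxp3 was at 12.5% and 11.6% with the WT lists and at 6.38% and 10.1% with the IkE5 lists. Ikaros, mapped in WT cells, was present at 12.7% and 23.2% of WT-only, 8.67% and 11.6% of IkE5-only, and 71.4% and 78.9% of the wider shared regions. No peak of any other target in any list lay in 66.3% of WT-only and 64.3% of IkE5-only regions, against 10.6% of regions in all 4. These shares are over regions that share libraries, and were not tested.

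**Figure D2:**
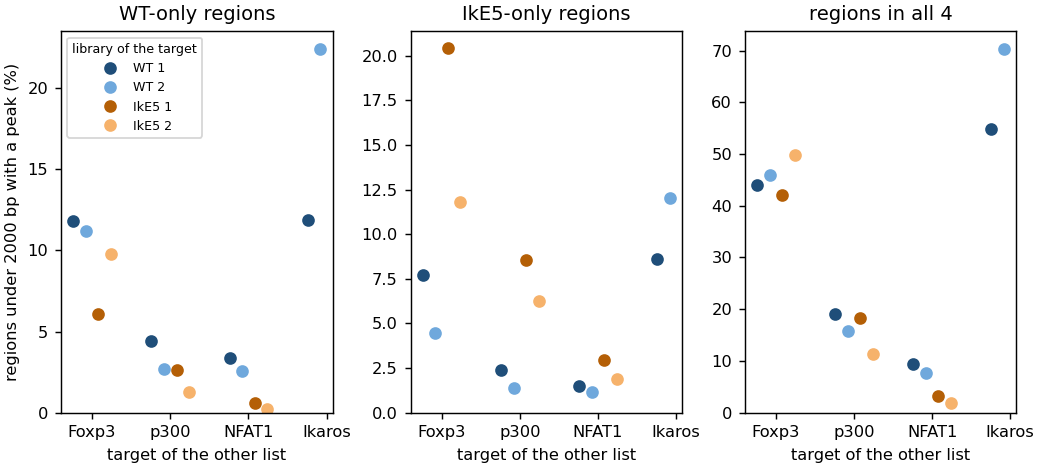
Share of H3K27ac regions under 2000 bp (vertical axes, each from 0 to its own maximum) that hold a peak of Foxp3, p300, NFAT1 or Ikaros, 1 point per library of that target. At IkE5-only regions the IkE5 points of p300 (8.57% and 6.25%) lie above the WT points (2.40% and 1.40%), and Ikaros was mapped in WT only.

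Some genes held many genotype-specific regions. Of 14790 genes with any region in the gene or within 10 kb, a WT-only region was found at 1962 (13.3%), an IkE5-only region at 1662 (11.2%), and both kinds at 330. At least 3 WT-only and no IkE5-only region were found at 94 genes, and the reverse at 77. After the transcription factor genes of resting T cells Foxp1, Bach2 and Lef1, with 22, 15 and 12, the most WT-only regions lay at Ripor2 (10), Satb1 and Thada (9 each), Tgfbr2 and Mad1l1 (7 each) and Foxo1 and Rora (6 each). Only Bach2 and Mad1l1 among these 10 genes had an IkE5-only region, 1 each. The most IkE5-only regions lay at Runx2, which encodes a Runt family factor, with 15, and at the kinase gene Hipk2 and the calcium channel gene Itpr1 with 10 each. Etv6, an ETS family repressor gene, Mical3 and Asap1 had 7 each, Carmil1 and Gas7 had 6 each, and Atg7 and B4galt5 had 5 each. Long genes with many regions have more chances of such counts: Foxp1 had 146 regions in all and Runx2 had 67, whereas Carmil1 had 11, of which 6 were IkE5 only.

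The limma fit over acetylated length called 49 of 12714 genes lower (0.385%) and 94 higher (0.739%) in IkE5 at an adjusted p under 0.05, in 46 and 88 separate loci. Of the higher genes 15 had no covered length in either WT library, and of the lower genes 4 had none in either IkE5 library. Such genes passed the filter of a mean of at least 1000 bp only through the other genotype, so the filter was not independent of their calls. All calls of the fit depended on how the libraries were scaled. With libraries scaled to the 20229 shared regions, 0 genes passed (smallest adjusted p = 0.0554), although 941 lower and 791 higher genes had an unadjusted limma p under 0.05. Without scaling 0 passed (smallest adjusted p = 0.108, with 611 and 545 at an unadjusted p under 0.05), and with quantile normalization, added after the data were seen, 6 lower and 19 higher genes passed. Leaving out a library moved the counts too: the fit called 93 lower and 302 higher without WT 1, 32 lower and 69 higher without WT 2, 124 and 223 without IkE5 1, and 306 and 349 without IkE5 2. In these fits the lone library was assumed to vary like the other genotype. Of the called genes 19 lower and 58 higher ones were called whichever library was left out. Both IkE5 libraries lay below both WT libraries at 2688 genes (21.1%) and above them at 2347 (18.5%), and the median log2 difference over all tested genes was -0.02. Each statement below that a gene rose or fell refers to the fit scaled to total covered length and is subject to these limits.

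**Figure D3:**
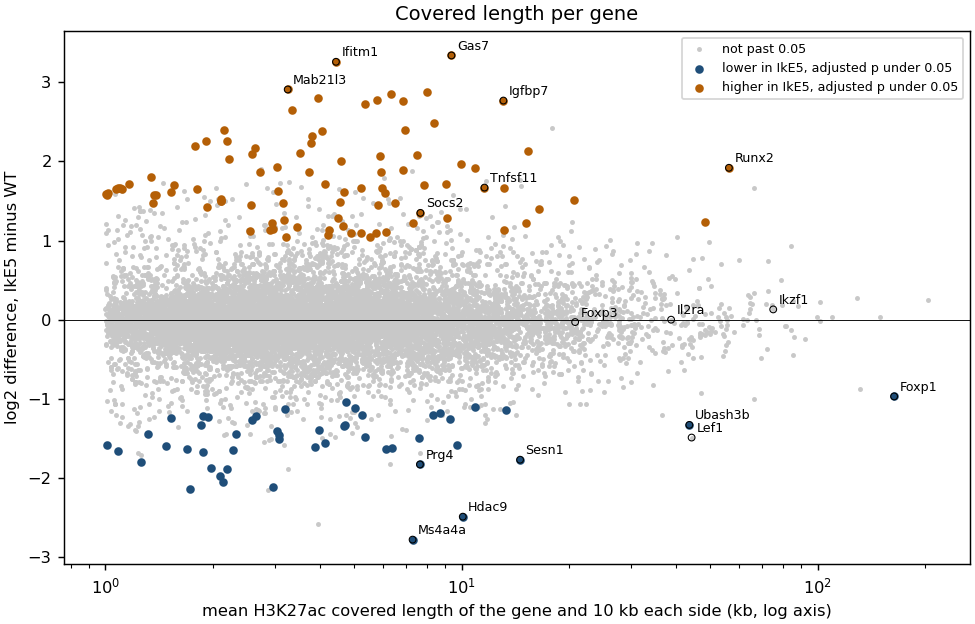
Log2 difference in H3K27ac covered length, IkE5 minus WT (vertical axis), against mean covered length (log axis), 1 point per gene tested, with genes at an adjusted p under 0.05 coloured. Ms4a4a and Hdac9 lie lowest among the called genes and Gas7 and Ifitm1 highest, while Foxp3, Il2ra and Ikzf1 lie near 0. Differences of genes with no covered length in a genotype depend on the added 1000 bp.

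The gene with the largest decrease was Ms4a4a (chr19:11375488-11392915), which encodes a membrane protein of the MS4A family. It had 13.1 and 13.7 scaled kb in WT and 0.581 and 1.77 in IkE5. Both IkE5 values were far below both WT values, and the log2 difference was -2.78 ± 0.27 (SE, limma adjusted p = 0.00364). Its 4 WT-only regions included its start site. Hdac9 (chr12:34047580-34917095) had 19.9 and 15.2 scaled kb in WT and 4.15 and 1.08 in IkE5 (log2 difference -2.49 ± 0.38, limma adjusted p = 0.0243). Hdac9 encodes a class IIa histone deacetylase. Sesn1 (chr10:41810574-41908436), a stress-induced gene whose product restrains the growth kinase mTORC1, had 19.5 and 26.8 scaled kb in WT and 5.16 and 6.95 in IkE5, with 5 WT-only regions. Its log2 difference was -1.77 ± 0.24 (limma adjusted p = 0.0161), and its start site was acetylated in all 4 libraries. Prg4 (chr1:150449412-150466221), the gene of the lubricating glycoprotein lubricin, had 10.8 and 14.2 against 2.39 and 3.18 (limma adjusted p = 0.012). Its neighbour Tpr, a nuclear pore gene called with it, had 11.5 and 13.4 against 4.39 and 5.55, and the flanks of both genes count the same peaks. The call of Tpr was lost without WT 2 (limma adjusted p = 0.138) and without IkE5 1 (0.0543).

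The other loci with the largest decreases had little acetylation to begin with. Zfp618 (chr4:62965555-63139709), a zinc finger gene, had 3.98 and 6.76 scaled kb in WT and 0 and 1.08 in IkE5. The cyclic AMP phosphodiesterase gene Pde8b (chr13:95024105-95250401) had 3.33 and 4.79 against 0.462 and 0. The semaphorin receptor gene Plxna1 (chr6:89316313-89362613) had 4.0 and 3.31 against 0.585 and 0. The iron reductase gene Cybrd1 (chr2:71118054-71142926) had 2.94 and 3.73 against 0 and 0.846. Xkrx (chrX:134149037-134185497) had 4.51 and 3.34 against 0 and 0.542, and its start site was acetylated in WT only. 4930486L24Rik had 2.45 and 5.64 against 0 and 0.678. A530021J07Rik (2.94 and 3.96 in WT) and Myrfl (2.07 and 2.95 in WT) were listed at 0 in both IkE5 libraries. The limma adjusted p of these 8 loci lay between 0.00596 and 0.0490. Without WT 2 it was 0.0871 for Zfp618, 0.108 for Cybrd1 and 0.116 for 4930486L24Rik.

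Among the increases, the Ifitm cluster of interferon-induced transmembrane protein genes on chromosome 7 stood at the top together with Gas7. Ifitm1 (chr7:140967429-140969827) was listed at 0 in both WT libraries and had 11.3 and 6.46 scaled kb in IkE5 (limma adjusted p = 0.00128). Ifitm3 (chr7:141009590-141010744) had 1.26 and 0.782 in WT and 13.6 and 11.7 in IkE5, a log2 difference of 2.76 ± 0.21 (limma adjusted p = 0.00128). Products of these genes block the entry of viruses into cells. Ifitm2 had 5.25 and 2.87 against 19.1 and 16.3, Ifitm6 had 2.53 and 0.782 against 12.9 and 11.6, and Ifitm5 had 8.92 and 6.91 against 18.3 and 18.4. The call of Ifitm5 was lost without WT 2 (limma adjusted p = 0.164). The flanks of neighbouring Ifitm genes overlap, so they are not independent counts. Similar sequence within such a family can leave the assignment of short reads uncertain, which was not examined. Start sites differed within the cluster: that of Ifitm1 was acetylated in IkE5 only and that of Ifitm3 in all 4 libraries.

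Promoter windows (250 bases before to 50 after the start) are shown for 4 of the called genes, picked after their values were seen, to set the letters at starts acetylated in 1 genotype beside those of a start acetylated in both. They come from RefSeq on GRCm38.p6, the assembly of mm10, and run 5′ to 3′ on the strand of the gene. Capitals mark matches on either strand to TGGGAA (the Ikaros core), TGGAAA (the NFAT core) or GAAA repeated after a gap of 2 bases (an interferon response pattern). The NFAT core and the interferon pattern can share the letters GAAA. The windows are Ms4a4a at chr19:11375238-11375537 (plus strand, WT-only start), Ifitm1 at chr7:140967826-140968125 (plus strand, IkE5-only start), 1 of the 2 listed starts of Plac8 at chr5:100563047-100563346 (minus strand, IkE5-only start) and Ifitm3 at chr7:141010695-141010994 (minus strand, start acetylated in all 4 libraries).
Ms4a4a: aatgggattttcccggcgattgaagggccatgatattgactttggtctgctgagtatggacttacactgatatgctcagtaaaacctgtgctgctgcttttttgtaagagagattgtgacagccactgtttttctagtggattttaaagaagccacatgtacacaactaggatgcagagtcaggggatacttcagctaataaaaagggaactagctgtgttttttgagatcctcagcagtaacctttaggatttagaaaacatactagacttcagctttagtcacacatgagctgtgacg
Ifitm1: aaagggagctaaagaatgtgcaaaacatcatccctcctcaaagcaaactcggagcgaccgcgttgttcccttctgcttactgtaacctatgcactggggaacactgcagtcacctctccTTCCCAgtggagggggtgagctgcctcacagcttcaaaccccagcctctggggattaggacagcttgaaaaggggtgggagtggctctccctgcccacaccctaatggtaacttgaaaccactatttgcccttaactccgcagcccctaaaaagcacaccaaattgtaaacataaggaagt
Plac8: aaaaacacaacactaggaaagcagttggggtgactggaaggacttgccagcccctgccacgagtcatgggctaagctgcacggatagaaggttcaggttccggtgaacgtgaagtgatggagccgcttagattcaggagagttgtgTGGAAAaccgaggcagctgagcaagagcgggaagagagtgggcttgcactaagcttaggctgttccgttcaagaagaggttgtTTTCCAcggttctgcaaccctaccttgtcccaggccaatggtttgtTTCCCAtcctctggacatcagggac
Ifitm3: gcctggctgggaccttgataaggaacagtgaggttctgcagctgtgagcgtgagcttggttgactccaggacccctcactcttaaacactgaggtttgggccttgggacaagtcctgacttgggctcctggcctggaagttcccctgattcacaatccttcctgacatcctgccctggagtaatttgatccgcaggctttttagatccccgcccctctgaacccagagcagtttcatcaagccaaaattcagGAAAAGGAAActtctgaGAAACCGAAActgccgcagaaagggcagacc

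The Ms4a4a window held none of the 3 patterns, the Ifitm1 window held 1 Ikaros core, the Plac8 window 1 Ikaros and 2 NFAT cores, and the Ifitm3 window 2 interferon response patterns. The other Plac8 start (chr5:100572156-100572455), also acetylated in IkE5 only, held 1 NFAT core and no Ikaros core. Over all 21263 starts of 17492 genes with a listed window, 24.5% held an Ikaros core, 19.3% an NFAT core and 3.35% an interferon response pattern. Of the 141 starts acetylated within 1 kb in IkE5 only, 36.9% held an Ikaros core, 27% an NFAT core and 2.13% an interferon response pattern. The 115 WT-only starts gave 28.7%, 15.7% and 4.35%, and the 10074 starts acetylated in all 4 libraries gave 22.0%, 15.7% and 3.23%. At the 9601 starts without acetylation the shares were 26.7%, 23.0% and 3.54%. A match describes letters and not a bound site, and the base composition of the classes was not matched.

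Acetylation at the start site itself seldom differed between genotypes. Taking all listed starts of a gene together, 87 of 17492 genes (0.497%) had H3K27ac within 1 kb of a start in WT only, 108 (0.617%) in IkE5 only, and 8394 in all 4 libraries. Of the called genes with a listed start, 12 of 69 higher genes had an IkE5-only start and 29 a start acetylated in all 4, and 5 of 31 lower genes had a WT-only start and 12 a start acetylated in all 4. The 12 comprised Ifitm1, Ifitm6, Mab21l3, Plac8, Muc13, Siglecf, Serpina3f, Tnfsf15, Vash1, Kif14, Lima1 and Ccdc33, and the 5 were Ms4a4a, A530021J07Rik, Xkrx, Noxa1 and Actn2, all listed here after their values were seen. Peaks at the start are part of the length that was tested, so these counts are not independent of the calls.

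Outside the Ifitm cluster, the loci with the largest increases were of mixed function. Gas7 (chr11:67453257-67688992), which encodes an actin-associated protein, had 2.18 and 0 scaled kb in WT and 21.9 and 13.4 in IkE5. Its log2 difference was 3.34 ± 0.47 (SE, limma adjusted p = 0.0183), and it held 6 IkE5-only regions. Igfbp7 (chr5:77349240-77408045), the gene of a secreted growth factor binding protein, had 4.61 and 1.23 against 25.6 and 21.0 (log2 difference 2.77 ± 0.38, limma adjusted p = 0.0161). Polr2b, an RNA polymerase II subunit gene next to it, was called in the same locus, though not without WT 2 (limma adjusted p = 0.127). Mab21l3 (chr3:101813076-101836283) was listed at 0 in both WT libraries and had 6.43 and 6.57 in IkE5. Plac8 (chr5:100551589-100572253) had 0.953 and 0.616 against 13.3 and 10.5. Loci were named here only if their groups did not overlap, so the lack of overlap is no separate result.

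Several further loci rose from low levels in WT. Carmil1 (chr13:24012481-24280802), a regulator of actin filament capping, had 0.537 and 0.795 scaled kb in WT and 10.5 and 9.55 in IkE5. Stau2 (chr1:16228803-16520332), which encodes a double-stranded RNA binding protein, had 0.423 and 0 against 6.86 and 6.12. Plekhg3 (chr12:76533303-76580489), a guanine nucleotide exchange factor gene, had 0.845 and 0.616 against 11.4 and 10.3. In all of these the WT level was about that of a single narrow peak. Tmcc2 (chr1:132356315-132391923) had 0.532 and 0 against 8.48 and 6.79. Ptprn2 (chr12:116485695-117278167), a gene of the receptor phosphatase family, had 3.67 and 0.616 against 17.3 and 12. The limma adjusted p of these 5 loci lay between 0.00128 and 0.0380.

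**Figure D4:**
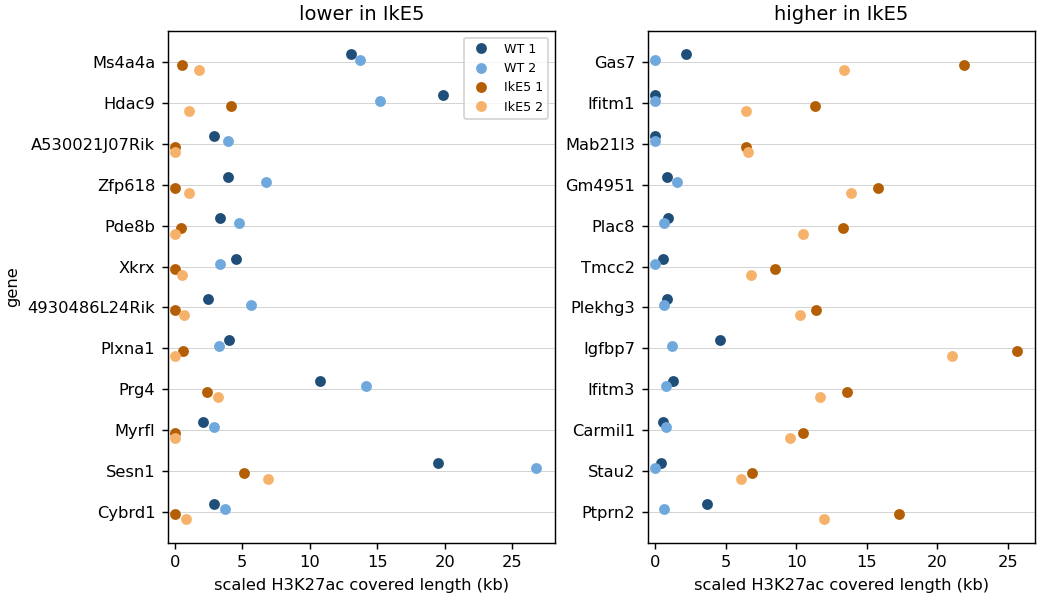
Scaled H3K27ac covered length (horizontal axes, kb) of the 12 loci with the largest decrease (left) and the 12 with the largest increase (right), 1 point per library. In each locus both blue WT points lie on one side of both orange IkE5 points, as the choice of loci required. WT Ms4a4a lies at 13.1 and 13.7 kb, and IkE5 Igfbp7 at 25.6 and 21.0 kb.

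Interferon-induced genes, the longest list, included the most called members of any list. Of 59 tested genes, 25 (42.4%) lay higher in IkE5 without overlap and 12 (20.3%) lower, with a median log2 difference of 0.22 against -0.02 over all genes. Of all genes tested, 18.5% lay higher and 21.1% lower, and 0.739% were called higher and 0.385% lower. The fit called 5 higher, Ifitm1, Ifitm2, Ifitm3 and the GTPase genes Gm4951 and Iigp1, and 1 lower, Slfn5, a Schlafen family gene. The flanks of Ifitm1 and Ifitm2 overlap, so these calls are not independent. Gm4951 (chr18:60212004-60248440) had 0.818 and 1.54 scaled kb in WT and 15.8 and 13.9 in IkE5, and Iigp1, further along the same chromosome, had 5.17 and 4.54 against 12.5 and 14.1. Slfn5 had 6.70 and 10.1 against 2.18 and 2.48 (log2 difference -1.48 ± 0.23, limma adjusted p = 0.0273). Without WT 2 the adjusted p of Slfn5 was 0.0772 and that of Iigp1 was 0.0823. Members outside the calls lay on both sides, as 4 of them show that were picked after their values were seen. The GTPase gene Igtp had 18 and 17.4 against 25.9 and 24, and the antiviral gene Oas3 had 3.99 and 4.54 against 6.50 and 6.65. The antiviral gene Rsad2 had 1.92 and 1.51 against 0.585 and 0.833, and Usp18, which limits interferon signalling, had 9.33 and 13.6 against 9.08 and 8.49. None of these 4 genes passed the test.

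Many genes of naive and quiescent T cells had shorter acetylated lengths in both IkE5 libraries. Both IkE5 libraries lay below both WT libraries at 13 of 24 tested genes (54.2%, against 21.1% of all genes) and above at 1, Il7r. The median log2 difference was -0.28, and with libraries scaled to shared regions 13 and 1 genes were again without overlap. Foxp1, which helps to keep T cells quiescent, was the called member, with 206 and 228 scaled kb in WT and 101 and 121 in IkE5 (log2 difference -0.97 ± 0.17, limma adjusted p = 0.0376). This call held in 1 of the 4 fits that left out a library: the adjusted p of Foxp1 was 0.0893 without WT 2, 0.573 without IkE5 1 and 0.233 without IkE5 2, and it was 0.222 with quantile normalization. Lef1, a factor of naive T cells, had 50.7 and 79.4 against 15.1 and 31.9 (limma adjusted p = 0.0900). Bach2, a repressor of effector genes, had 150.3 and 186 against 68.5 and 119.7 (limma adjusted p = 0.157), and Dapl1 had 4.89 and 8.89 against 0.858 and 3.0 (limma adjusted p = 0.106). Members and lists were chosen with such results of these data known, so the counts are a description.

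The TGF-beta pathway list, whose ligand supports Treg development and function, had 5 of 14 genes lower (35.7%) and 2 higher (14.3%) without overlap, against 21.1% and 18.5% of all genes, and a median log2 difference of -0.32. None was called. The receptor gene Tgfbr2 had 43.6 and 57.7 scaled kb in WT and 15.2 and 29.7 in IkE5 (limma adjusted p = 0.109), with 7 WT-only regions. Tgfbr1 had 10.2 and 4.67 against 3.62 and 4.11. The inhibitor gene Skil had 16 and 18.8 against 9.58 and 13.4. Smad4, the shared signal transducer gene, ran the other way, with 2.94 and 6.11 against 9.84 and 16.1 (limma adjusted p = 0.0968) and 3 IkE5-only regions. T cell lineage regulators had 8 of 19 genes lower (42.1%) and 3 higher (15.8%), with a median of -0.13. The list is not separate from the others: Satb1, Bcl11b and Ets1 are also in the naive and quiescence list and Tox in the co-inhibitory list. Satb1, a chromatin organiser gene, had 39.2 and 64.9 against 27.9 and 36.7, and Tox, a regulator gene of T cell development and exhaustion, had 111 and 87.3 against 74.5 and 69.0.

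Genes of effector T cells without overlap between genotypes lay mostly on the higher side. Of 13 T helper 1 genes tested, 8 (61.5%, against 18.5% of all genes) lay higher without overlap, 0 lay lower, and the median log2 difference was 0.96. With libraries scaled to shared regions 6 lay higher and 1 lower. None of the 13 was called. Here the WT libraries differed from each other: Tbx21, the gene of the master regulator T-bet, had 8.56 and 0.978 scaled kb in WT and 14.3 and 6.96 in IkE5, with overlap. The chemokine receptor gene Cxcr3 had 6.83 and 1.27 against 10.2 and 9.04. Il18rap, a receptor chain gene for interleukin 18, had 7.01 and 2.72 against 15.5 and 8.93. The cytotoxic granule gene Gzmb had 2.21 and 0 against 4.67 and 1.98. Of 19 effector cytokine genes 8 (42.1%) lay higher, 0 lower, with a median of 0.31, and 1 was called. This was Tnfsf11, the gene of the cytokine RANKL, with 5.83 and 4.27 against 16.4 and 19.9 (log2 difference 1.67 ± 0.23, limma adjusted p = 0.0161). Ifng had 3.04 and 0 against 6.80 and 4.29, Csf2 had 0.845 and 0.616 against 8.51 and 2.43 (limma adjusted p = 0.0939), and Il3 was listed at 0 in WT with 4.98 and 0.83 in IkE5. The flanks of Il3 and Csf2, of Il4 and Il13 and, among T helper 1 genes, of Il18r1 and Il18rap overlap. These neighbours all lay higher without overlap of groups and are not independent counts.

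Treg identity genes were spread to both sides, with 7 of 30 higher (23.3%), 6 lower (20%) and a median log2 difference of -0.02. All genes gave 18.5% and 21.1%, and with scaling to shared regions 5 of the list lay higher and 7 lower. The called member was Socs2, an inhibitor of cytokine signalling, with 3.76 and 4.0 scaled kb in WT and 12.5 and 10.4 in IkE5 (log2 difference 1.35 ± 0.21, limma adjusted p = 0.0243, and 0.0537 without WT 2). Klrg1, a receptor gene of differentiated Treg cells, had 11.2 and 2.76 against 22.1 and 22.3 (limma adjusted p = 0.110). The anti-inflammatory cytokine gene Il10 had 13.2 and 4.25 against 16.7 and 10.7, and the opioid peptide gene Penk had 1.78 and 0 against 2.62 and 1.84. In T cell receptor signalling genes 6 of 26 lay higher (23.1%) and 1 lower (3.85%), but with scaling to shared regions 5 lay higher and 6 lower. Themis, a signalling gene of developing T cells, was called there, with 13.1 and 7.82 against 33.5 and 28.4 (log2 difference 1.51 ± 0.26, limma adjusted p = 0.0362, and 0.0812 without WT 2).

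The remaining T cell lists had no further called member, and their counts are to be read against 18.5% higher and 21.1% lower over all genes. Cytokine receptor and brake genes had 6 of 24 higher (25%) and 3 lower (12.5%), or 4 and 4 with scaling to shared regions, and the call there was again Socs2. T helper 2, T helper 17 and follicular genes had 7 of 17 higher (41.2%) and 5 lower (29.4%), but 4 and 6 with scaling to shared regions. Among them was Prdm1, the gene of the effector regulator Blimp-1, at 17.9 and 7.38 scaled kb in WT and 25.4 and 18.4 in IkE5, and Ccr6 at 11 and 9.25 against 4.22 and 6.17. Co-inhibitory and exhaustion genes had 7 of 18 lower (38.9%) and 4 higher (22.2%), with the checkpoint receptor gene Lag3 at 12.7 and 12.4 against 18.1 and 19.6. Homing genes had 6 of 20 lower (30%) and 3 higher (15%): the gut-homing receptor genes Ccr9 and Gpr15 differed in opposite ways, Ccr9 with 7.12 and 13.3 against 3.36 and 4.49 and Gpr15 with 10.1 and 4.07 against 19.7 and 19.1. Activation-induced genes had 6 of 30 higher (20%) and 4 lower (13.3%). Ikaros family and corepressor genes had 8 of 26 higher (30.8%) and 4 lower (15.4%), and metabolic genes had 2 of 18 (11.1%) in each direction. Housekeeping genes had 3 of 19 higher (15.8%) and 4 lower (21.1%), or 4 and 3 with scaling to shared regions, and a median of -0.06.

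**Figure D5:**
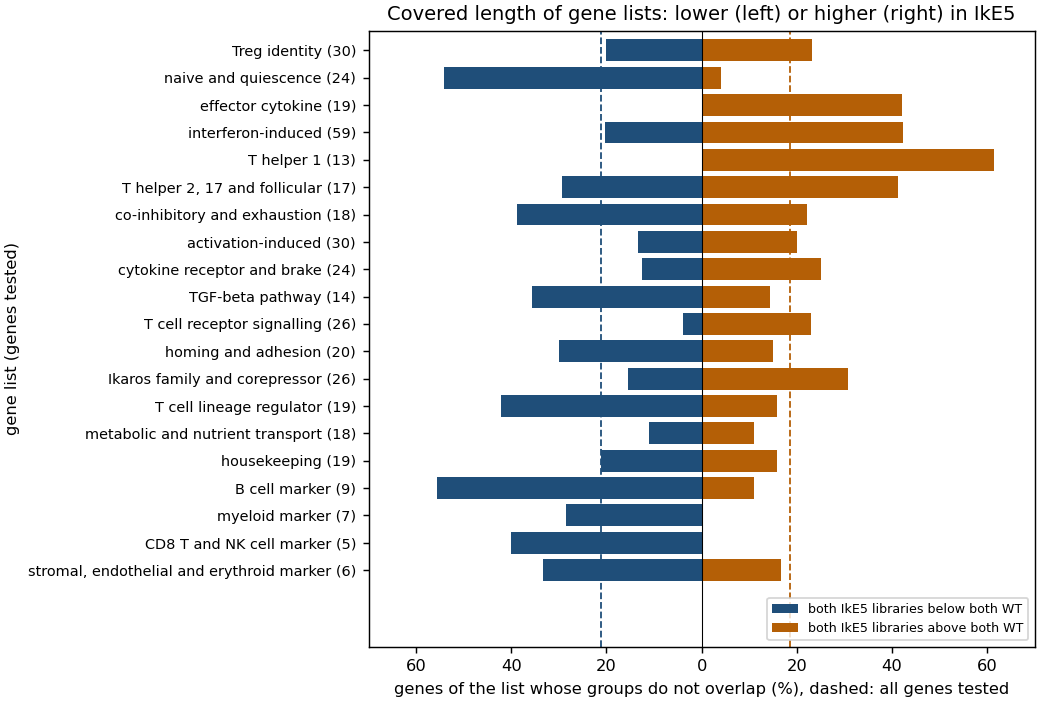
Share of the tested genes of each list (number in brackets) whose WT and IkE5 libraries do not overlap, lower in IkE5 to the left and higher to the right (horizontal axis, %). Dashed lines give the shares over all 12714 genes, 21.1% and 18.5%. Naive and quiescence genes reach 54.2% on the left and T helper 1 genes 61.5% on the right.

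Some markers of other cells also lay lower in IkE5, over few tested genes per list. B cell markers had 5 of 9 tested genes lower (55.6%) and 1 higher (11.1%) without overlap, against 21.1% and 18.5% of all genes, and their summed length was 33.5 to 41.4 scaled kb in WT and 29.7 to 33.0 in IkE5. Cd79a and Ebf1 were among the lower ones, whereas the defining gene Ms4a1 was at 0 in all 4 libraries. Myeloid markers had 2 of 7 lower (28.6%) and 0 higher, with summed lengths of 25.8 to 27.3 and 22.2 to 25.3. CD8 T and NK cell markers had 2 of 5 lower (40%) and 0 higher, with overlapping sums of 8.83 to 15.1 and 9.44 to 10.3. Markers of stromal, endothelial and erythroid cells had 2 of 6 lower (33.3%) and 1 higher (16.7%), with 51.7 to 65.1 and 45.6 to 50.2. Most of that length was Pecam1, with 40.1 and 53.5 against 35.3 and 39.3, which is also in the naive and quiescence list. The part of other cells in the lower lengths was not tested.

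Where a peak was present in all 4 libraries, its covered length still differed between genotypes at some sites. Of 20229 shared regions 198 (0.979%) were narrower and 251 (1.24%) wider in IkE5 by limma. Here too the scaling decided the calls: 0 passed without scaling (smallest adjusted p = 0.252) and 0 with quantile normalization (smallest adjusted p = 0.157), with 2218 and 2546 regions at an unadjusted p under 0.05. Leaving out WT 1, WT 2, IkE5 1 or IkE5 2 gave 563, 79, 10 and 145 narrower and 751, 197, 45 and 79 wider regions. The narrowest relative to WT lay in Thada (chr17:84270408-84276086), with 4.8 and 5.89 scaled kb in WT and 0.462 and 1.57 in IkE5 (log2 difference -2.29 ± 0.36, limma adjusted p = 2.53e-04). Others lay in Mfsd4a, Sh3bgrl2, the mannosidase gene Man1a and Ubash3b, which encodes a phosphatase that damps T cell receptor signals. The Ubash3b region (chr9:41128190-41136164) had 6.74 and 4.71 against 1.98 and 0.542.

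The regions that widened most were near genes already described. A region 15.3 kb from Ifitm1 (chr7:140985137-140992277) had 0.707 and 0.929 scaled kb in WT and 6.59 and 6.23 in IkE5 (log2 difference 2.65 ± 0.31, limma adjusted p = 7.01e-06). A region over Ifitm3 (chr7:141004873-141012505) had 1.22 and 0.782 against 7.05 and 7.81, and a region in Igfbp7 (chr5:77366472-77374194) had 1.42 and 0.616 against 7.08 and 7.47. In Etv6 (chr6:134203956-134212600) the lengths were 1.12 and 0.616 against 7.98 and 5.00. At the receptor gene Gpr15 (chr16:58715874-58724503) they were 2.00 and 0.616 against 7.97 and 7.88. Short peaks in WT thus stood where broad domains of several kb stood in IkE5.

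Factor lists at these regions moved in the same sense as the width, although they come from other libraries. At the wider regions p300 peaks lay at 45.8% and 44.6% with the IkE5 lists and at 24.7% and 21.9% with the WT lists, and NFAT1 peaks at 30.7% and 23.9% against 14.7% and 17.5%. At the narrower regions NFAT1 lay at 13.1% and 5.56% with the IkE5 lists and at 32.8% and 30.3% with the WT lists. Over all shared regions NFAT1 was at 16.7% and 11.9% in IkE5 and at 28.8% and 25.9% in WT, so among these 3 sets it was at the wider regions that both IkE5 lists exceeded both WT lists. Ikaros lay at 59.6% and 67.7% of the narrower, 49.4% and 54.6% of the wider and 71.4% and 78.9% of all shared regions. Only 7.58% of the narrower and 17.5% of the wider regions lay within 1 kb of a gene end, against 45.6% of all. These shares were not tested.

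Without reference to genes, in windows of 50 kb, limma called 0 of 12497 windows (0%, smallest adjusted p = 0.0660), with 916 lower and 937 higher at an unadjusted p under 0.05. In windows of 100 kb it called 1 of 8810 lower (0.0114%), in Hdac9, with 8.42 and 6.68 scaled kb in WT and none in IkE5. It called 7 higher (0.0795%). Of these 5 lay at Carmil1, Gm4951, Plekhg3, Stau2 and Tnfsf11, and the others were named after their values were seen. One (chr5:76000001-76100000) has its nearest gene 20.9 kb outside it, Kdr, which codes for an endothelial growth factor receptor. It had no acetylated length in WT and 5.18 and 5.18 scaled kb in IkE5, and the window that holds Erv3 (chr2:131800001-131900000) had 2.28 and 2.43 against 12.3 and 12.9.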

How the data were processed

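Peak lists of 18 samples were deposited, 4 of them for H3K27ac. Each holds the chromosome, start and end of peaks called per library, with no other score or value per peak. Per the submitters' processing notes the build was mm10 and the named tools were Bowtie2, MACS2, HOMER, bedtools and FastQC. The step of each, the calling threshold and the control used are not stated in those notes.

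Peaks overlapping by at least 1 bp were joined. Covered length per protein-coding gene (21887 RefSeq genes of GRCm38.p6, with 10 kb flanks), per 50 kb window and per shared region was scaled to the library's total. It was tested with limma 3.58.1 (R 4.3.3, trended prior, Benjamini-Hochberg at 0.05) on log2(length + 1000 bp), for regions + 250 bp, for genes and windows with a mean of at least 1000 bp. Fold changes on this scale understate those of short lengths. Single values per library were compared by the exact permutation test. The scripts were tested on simulated data. The RefSeq table of gene ends has no strand, and starts came from RefSeq promoter windows, listed for 17492 genes.

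The rule for named genes took up to 12 loci per direction with the largest log2 difference among called genes without overlap. It also took the called members and the 4 largest differences of each of 20 gene lists, and fixed Treg genes. Up to 5 called windows and shared regions per direction and the 5 widest regions of each genotype were added. Of the uncalled list members that the rule took, only a part is printed, and for some lists none. Members and lists were chosen with earlier results of these data known. Alternatives covered scaling, pseudocount, filter, flank, peak width, library number and single libraries. The 4 input samples were not used here.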

Additional observations from a re-analysis of the deposited data

How the results depend on the processing

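Called genes (49 lower, 94 higher) numbered 0 and 0 without scaling and with scaling to shared regions, 6 and 19 with quantile normalization, 18 and 42 with a pseudocount of 250 bp, 24 and 54 without the filter, 8 and 20 with a filter of 5 kb, and 16 and 28 with peaks of at least 1000 bp. Leaving out 1 library gave 32 to 306 lower and 69 to 349 higher genes. For windows, 100 kb gave 1 and 7 and the other sizes, scalings and single-library fits gave 0. Shared regions (198 narrower, 251 wider) numbered 0 and 0 without scaling and with quantile normalization, 74 and 79 with peaks of at least 1000 bp, and 10 to 563 and 45 to 751 without 1 library. WT-only and IkE5-only regions numbered 1316 and 1381 with peaks of at least 1000 bp, and 4495 to 16297 and 2876 to 12905 without 1 library. That rise without 1 library follows from a definition over fewer libraries. The difference in number of peaks ran from -10465 to 7295 and that in covered length from -12.1 to 12.9 Mb without 1 library. The causes were not tested. Of 31 named called genes, 0 kept their call when scaled to shared regions, 12 with quantile normalization and 23 without WT 2, and none of them turned its direction under any setting run.

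The labels give both genotypes the numbers 1 and 2 without saying that a number marks a shared preparation. With a replicate block the fit called 611 lower and 639 higher genes, 407 and 462 windows, and 53 narrower and 82 wider shared regions. All 31 named called genes kept their call with the block. Of 76 uncalled genes taken by the rule for named genes, 33 passed with it. The differences between libraries 1 and 2 of the genotypes correlated across 12714 genes with r = 0.460, where genes are not independent replicates. Read depth is unknown, and 2 libraries per genotype limit the precision.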

Other observations

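The sex-linked genes gave values that the labels do not speak to. Xist, with 2 kb on each side, had 4.05 and 2.67 kb of H3K27ac in WT and 0 and 0.889 kb in IkE5, before scaling. The Y-linked genes Ddx3y (2.18 and 2.03 against 3.35 and 2.05 kb), Uty (1.17 and 2.19 against 2.51 and 2.24 kb), Eif2s3y (1.29 and 1.41 against 1.54 and 1.52 kb) and Kdm5d (0.753 and 1.17 against 1.31 and 1.31 kb) were acetylated in every library. The X chromosome held 1.93% and 1.95% of the covered length in WT and 2.03% and 2.04% in IkE5 (2-sided exact permutation p = 0.33, the smallest that 2 libraries against 2 can give). Restricted to autosomes, the fit called 39 lower and 86 higher genes.

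Among called genes outside the rule for named genes, chosen after their values were seen, were several ligands and receptors of immune cells. Tnfsf4, the gene of OX40 ligand, was listed at 0 in WT and had 2.23 and 2.12 scaled kb in IkE5 (limma adjusted p = 0.0194). Tnfsf15 was likewise at 0 in WT, with 1.78 and 2.61 in IkE5, and so was Cd40, the receptor of helper signals on antigen-presenting cells, with 1.86 and 2.15. Sema7a, a membrane semaphorin gene, had 7.44 and 3.13 in WT and 30.9 and 19.9 in IkE5 (log2 difference 2.13 ± 0.35, limma adjusted p = 0.0305). Ccl1, a chemokine gene, had 2.51 and 2.78 against 10.4 and 7.64. Runx2, which also had the most IkE5-only regions, had 33.9 and 14.7 against 103 and 73.8 (log2 difference 1.92 ± 0.35, limma adjusted p = 0.0444). Tnfsf4, Tnfsf15 and Cd40 passed the filter on mean length only through the IkE5 libraries. The calls named here, like all others of the gene fit, were not made with libraries scaled to shared regions, where Cd40 was not tested.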
